A study of Homo sapiens with 6 samples.

Results

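AXL is a receptor tyrosine kinase at the cell surface, and its transcript was measured here in HCT116 cells with and without depletion of the nuclear receptor ERRα. The deposited comparison names 5 probe sets as AXL, and these lie within an unbroken run of 22 consecutive probe set identifiers, of which the other 17 carry no gene name. Together they are 22 of the 256161 probe sets used. AXL was singled out because these 5 probe sets differed between the groups on these same arrays. Its levels are therefore given as a description, with no test, and no value along the run is independent evidence for the difference.

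HCT116 is an established human colon carcinoma line. All cells were infected with a lentivirus for 48 h, selected with puromycin for a further 48 h and kept in medium with 10% serum without phenol red. The shscrambled group carried a scrambled short hairpin RNA and the shERRα group (shERRalpha in the labels) a hairpin against ERRα, the product of ESRRA. Each group has 3 arrays described as biological replicates. Separate infections are not stated, so the spread between them may be partly technical. The labels describe a single hairpin against ERRα, so loss of ERRα cannot be told apart from other effects of that hairpin. Levels are in log2 units, so that a difference of 1 log2 unit is a 2-fold difference.

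AXL belongs to the TAM family of receptors, with TYRO3 and MERTK. The secreted protein GAS6 binds its extracellular part, after which the intracellular kinase domain passes the signal to the phosphatidylinositol 3-kinase and AKT route and to regulators of the cytoskeleton. The receptor is removed from the surface by ADAM proteases and by ubiquitin ligases such as CBL. In carcinomas AXL is known for its association with migration, a mesenchymal state and drug resistance, and its gene is a well-known target of the transcriptional coactivators YAP and TAZ.

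AXL lies on chromosome 19, and RefSeq gives it 3 curated transcripts. Because ERRα is a DNA-binding receptor, the sequence before the RefSeq start of AXL was read for its response element. The stretch of 250 bases that ends at the base before that start is chr19:41218973-41219222 on the plus strand of GRCh38.p14, with a GC content of 64.4%. It is shown 5′ to 3′ with capitals marking each match of GGGCGG, the GC box bound by SP1-type factors.

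AXL promoter: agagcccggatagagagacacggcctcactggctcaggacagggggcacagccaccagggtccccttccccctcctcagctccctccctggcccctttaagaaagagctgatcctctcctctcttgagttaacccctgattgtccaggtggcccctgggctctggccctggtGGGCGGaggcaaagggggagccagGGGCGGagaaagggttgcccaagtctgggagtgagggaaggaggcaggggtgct

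The GC box matched 2 times, beginning 78 and 54 bases before the start, both on the plus strand. Of all 35116 RefSeq windows of the same length, 42.6% held at least 1 match. Of the ERRα response element, only the exact form TCAAGGTCA was searched, on both strands. This form had 0 matches in this stretch, and 0.319% of all windows held it. Its last 6 bases, AGGTCA, the core of many nuclear receptor elements, also had 0 matches, against 12.1% of all windows with at least 1. A second RefSeq window of AXL, which precedes an alternative start at the chr19 position 41226755, held none of the 3 motifs. These counts describe the letters of these windows and say nothing about binding.

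ESRRA, the target of the hairpin, was read first. Its level, the median of both named probe sets, read 4.86, 5.10 and 5.28 log2 units on the shscrambled arrays and 2.29, 2.60 and 2.23 on the shERRα arrays. Every shERRα array lay below every shscrambled array. Both probe sets were listed for their difference on these arrays, so this is no independent check of the depletion. The shERRα mean of 2.38 is under 2.41, the 25th percentile of all probe set means, and so near background. Array medians over all probe sets lay between 4.28 and 4.43 log2 units. shERRα replicate 1 stood apart, with a correlation of 0.867 to 0.877 with the other arrays against 0.933 to 0.947 among those. Limma with Benjamini-Hochberg adjustment called 0 of the 256161 probe sets, while 6962 higher and 11577 lower ones had an unadjusted p under 0.05. Gene names exist here only for listed probe sets, so the identity of the cells could not be checked against markers at large. Of 5 epithelial markers, the cells' own type, 1 was listed (CDH1, lower). Of the markers of other cell types, 3 of 6 fibroblast and endothelial genes (COL1A2 lower, COL3A1 and KDR higher) and 1 of 4 leukocyte genes (ITGAM, higher) were listed, where 11.7% of runs of 10 to 60 consecutive identifiers held a listed probe set. Their part in the results was not tested.

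The 5 probe sets named AXL were lower in shERRα by 1.00 to 2.62 log2 units. Probe set 8029019 read 5.03, 5.98 and 4.92 log2 units on the shscrambled arrays and 2.47, 2.29 and 3.32 on the shERRα arrays. The lowest control lay well above the highest shERRα array, and the mean level differed 6.14-fold (log2 difference -2.62, SE 0.43). On shERRα replicate 2 the reading was under 2.41 and so near background, which makes this fold inexact. Probe set 8029012 read 5.87, 5.87 and 6.11 in the control and 3.73, 2.83 and 4.08 in shERRα, a level 5.26-fold lower (log2 difference -2.40, SE 0.38). Its control arrays were close together, and its shERRα arrays spread over more than 1 log2 unit.

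Probe set 8029027, at a lower control level, read 4.72, 4.36 and 4.27 log2 units against 2.39, 2.46 and 3.26. Here shERRα replicate 1 was under 2.41 and so near background. In this probe set shERRα replicate 3 was the highest of its group, as it was for 8029012 and 8029019. The brightest of the named probe sets, 8029010, read 8.22, 7.83 and 8.19 in the control and 7.12, 6.10 and 6.21 in shERRα. Here shERRα replicate 1 was highest, by about 1 log2 unit over the other two. The smallest difference belonged to 8029021, which read 6.51, 7.11 and 6.71 against 5.93, 5.66 and 5.74. Its fold of 2.00 lies just past the 2-fold limit of the deposited table.

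Those values chose the gene. The authors' deposited table holds probe sets that differ at least 2-fold with a p below 0.01, before any adjustment, and gives AXL ratios of shERRα over shscrambled from 0.163 at 8029019 to 0.499 at 8029021. The p-values in the authors' deposited table run from 0.00326 at 8029012 to 0.00987 at 8029010, the latter just inside the limit. Of all probe sets, 0.557% were listed lower and 0.271% higher. Just outside the limit, and so without a name, lay 8029009 next to it in the run, which was 2.45-fold lower and for which the same comparison gave 0.0135 where the limit is 0.01. Nothing is read from the count of 5 in 22, because the rule used this contrast.

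**Figure D1:**
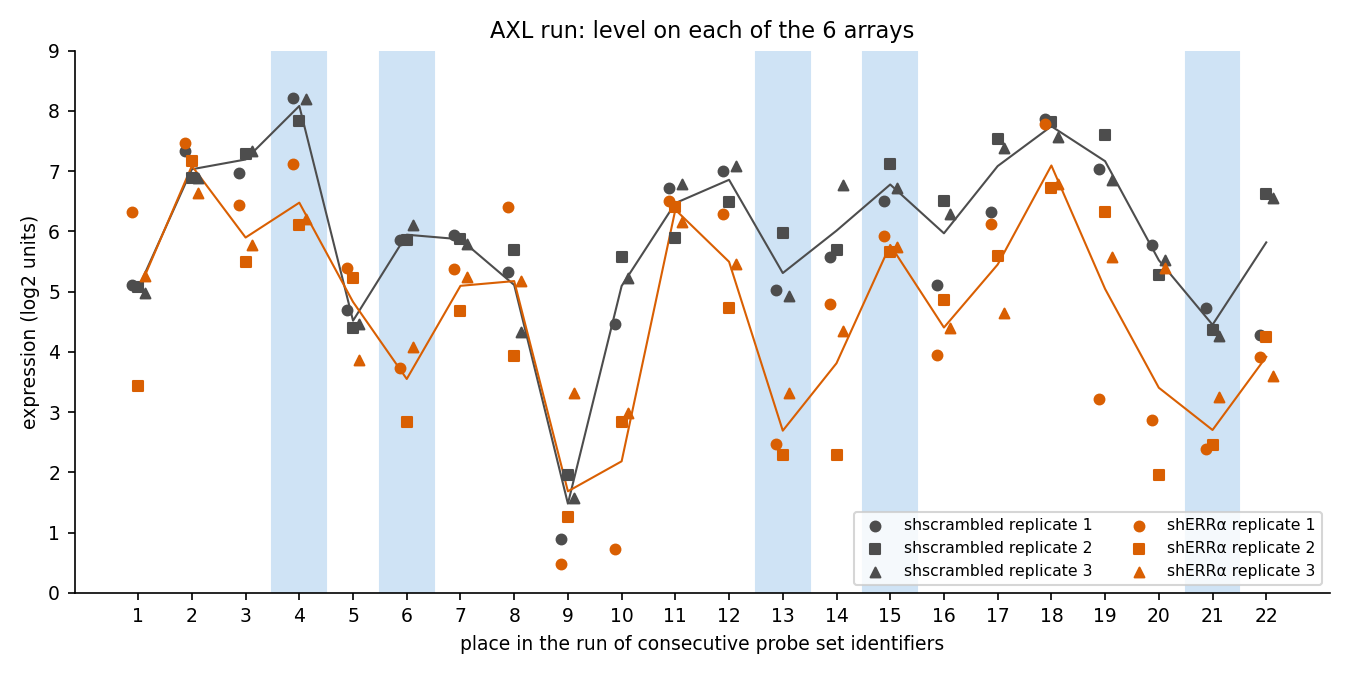
Level in log2 units (vertical axis) of the 22 probe sets of the AXL run in the order of their identifiers (horizontal axis), with 1 symbol per array, lines through the group means, and shading over the 5 probe sets named AXL. Grey symbols (shscrambled) lie above orange ones (shERRα) at all shaded places, and both groups mix at places such as 1, 2, 5 and 11.

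Along the whole run, 18 of 22 probe sets had a lower mean level in shERRα and 4 a higher one, where 50.2% of all probe sets were lower. In 14 of the 22 all shERRα arrays lay below all shscrambled arrays, as they did in 8.37% of all probe sets. None lay wholly above. A difference of at least 1 log2 unit downward was measured for 14 probe sets, against 6.84% of all. These counts include the 5 probe sets that the deposited rule selected. Among the 17 unnamed ones, 13 were lower on average, 9 had no overlap between the groups and 9 were lower by at least 1 log2 unit, though these too were chosen for lying beside selected probe sets. An unnamed probe set is not known to belong to AXL.

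The largest difference of the run was in an unnamed probe set. Probe set 8029016 read 4.47, 5.58 and 5.23 log2 units in the control and 0.73, 2.83 and 2.99 in shERRα (log2 difference -2.91, SE 0.66). The groups were far apart, and shERRα replicate 1 stood about 2 log2 units under the other two. The mean level in shERRα, 2.18, is under the 25th percentile of all probe set means, 2.41, which is near background, so its fold is not exact. Probe set 8029020 read 5.58, 5.69 and 6.77 against 4.80, 2.29 and 4.35. Its groups did not overlap, but the 3 shERRα arrays differed by over 2 log2 units.

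In other probe sets 1 shERRα array went its own way. At 8029025 the control arrays read 7.04, 7.61 and 6.85 and the shERRα arrays 3.23, 6.33 and 5.58, with replicate 1 far below its group. At 8029026 the readings were 5.77, 5.28 and 5.52 against 2.87, 1.96 and 5.39, and replicate 3 stayed within the control range. Probe set 8029024, among the brightest of the run, read 7.87, 7.81 and 7.56 against 7.78, 6.71 and 6.79, with replicate 1 at the control level. Their SEs of 0.78, 0.83 and 0.36 log2 units reflect this spread.

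A further group of probe sets hardly differed in mean. Probe set 8029008 read 7.33, 6.89 and 6.88 log2 units in the control and 7.46, 7.16 and 6.64 in shERRα (log2 difference 0.06, SE 0.32). Probe set 8029017 read 6.73, 5.89 and 6.79 against 6.51, 6.41 and 6.16 (log2 difference -0.11, SE 0.34). Both lie above 4.29, the median of all probe set means. At 8029007, where the controls read 5.11, 5.08 and 4.98, the shERRα arrays read 6.33, 3.44 and 5.25 and thus lay on both sides. Probe set 8029011 had the largest mean difference upward, 0.31 log2 units with an SE of 0.45. Probe set 8029015 had means of 1.48 and 1.69, both near background. Across the 22 probe sets the control level and the difference had a Pearson correlation of -0.22 and a Spearman correlation of -0.09, where all points share the same 6 arrays. The control level also enters the difference with a minus sign, which pushes such a correlation downward.

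**Figure D2:**
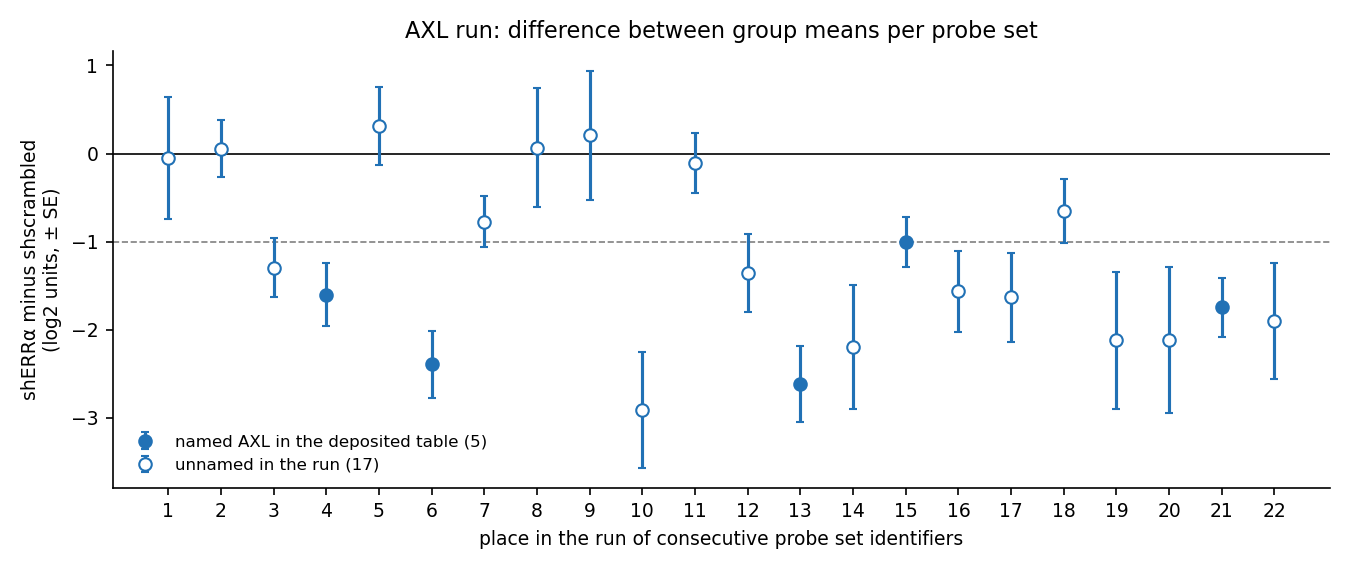
Difference between group means (shERRα minus shscrambled, log2 units, with the SE from limma's fit) for each probe set of the AXL run in identifier order. Filled symbols are the 5 probe sets named AXL, open ones the 17 unnamed, and the dashed line marks a level 2-fold lower. Differences run from -2.91 at place 10 to 0.31 at place 5.

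The differences were not spread evenly over the run. Among the first 11 identifiers, 4 were lower by at least 1 log2 unit and the median difference was -0.11. Among the last 11 identifiers, 10 were lower by at least 1 log2 unit, the median difference was -1.75, and even the smallest difference was -0.65. This division of the run was made after the values were seen. The median difference of the first 11 was not stable: it was -0.71 without shERRα replicate 1, -0.61 without shERRα replicate 3, -0.40 without shscrambled replicate 2 and -0.33 without shscrambled replicate 3. Over all arrays left out in turn it ranged from -0.71 to -0.08, against -1.99 to -1.53 for the last 11. Whether identifier order follows the order of exons is not given in the sources used here, so the pattern cannot be placed on the transcript.

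Summed up per array, the first part of the run had medians of 5.87, 5.87 and 5.79 log2 units in the control and 6.33, 4.68 and 5.24 in shERRα. Replicate 1 lay above every control array there and the other two below. The last part had medians of 5.77, 6.51 and 6.71 against 3.95, 4.73 and 4.64, and replicate 1 was the lowest of all. The direction in which this array departs from its group is thus opposite in both parts.

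The median over all 22 probe sets was 5.82, 5.93 and 6.42 log2 units on the shscrambled arrays and 5.38, 4.71 and 5.21 on the shERRα arrays. This gives 6.06 ± 0.32 against 5.10 ± 0.35 (SD, n = 3), a level 1.94-fold lower, with no overlap between the groups. The 17 unnamed probe sets alone gave 6.07 ± 0.42 against 5.12 ± 0.34 (SD, n = 3), 1.93-fold lower. Over the 5 named probe sets the median was 5.87, 5.98 and 6.11 against 3.73, 2.83 and 4.08. In means this is 5.98 ± 0.12 against 3.55 ± 0.64 (SD, n = 3), 5.40-fold lower. That median is carried by probe set 8029012, which supplies it on all shERRα arrays and on 2 of the shscrambled arrays. The median of the 5 differences, -1.75 log2 units, makes AXL 3.36-fold lower. The size of the AXL difference therefore varied with the summary, while its direction was set when the named probe sets were chosen.

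Between shERRα arrays, replicate 2 had the lowest reading in 12 of the 22 probe sets and replicates 1 and 3 in 5 each. Below the lowest control lay 16 probe sets on replicate 1, 18 on replicate 2 and 17 on replicate 3. These counts include the 5 named probe sets, selected for being lower, and the shares over all probe sets were not computed. Nothing is read from these counts. Without shERRα replicate 1, 20 of the 22 probe sets were lower on average, for which the share over all was not computed. In that setting 14 were lower by at least 1 log2 unit, where 5.28% of all were. Without shERRα replicate 2 these counts were 17 and 12. Over all arrays left out in turn they ranged from 17 to 20 and from 12 to 14, always with the 5 named probe sets included. In total RNA of a whole culture, fewer cells with AXL and less AXL transcript per cell cannot be told apart.

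The runs on either side are given for comparison. They were taken by position only, while the AXL run was chosen around probe sets listed for their difference. That choice by itself favours a larger difference in the AXL run. The 14 probe sets before the AXL run had a median of 5.25 ± 0.03 against 5.02 ± 0.30 log2 units (SD, n = 3), and the 20 after it had 7.55 ± 0.28 against 7.57 ± 0.17 (SD, n = 3). In both neighbours the groups overlapped, and the differences of -0.23 (SE 0.17) and 0.01 (SE 0.19) were smaller than that of the AXL run; this was not tested.

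**Figure D3:**
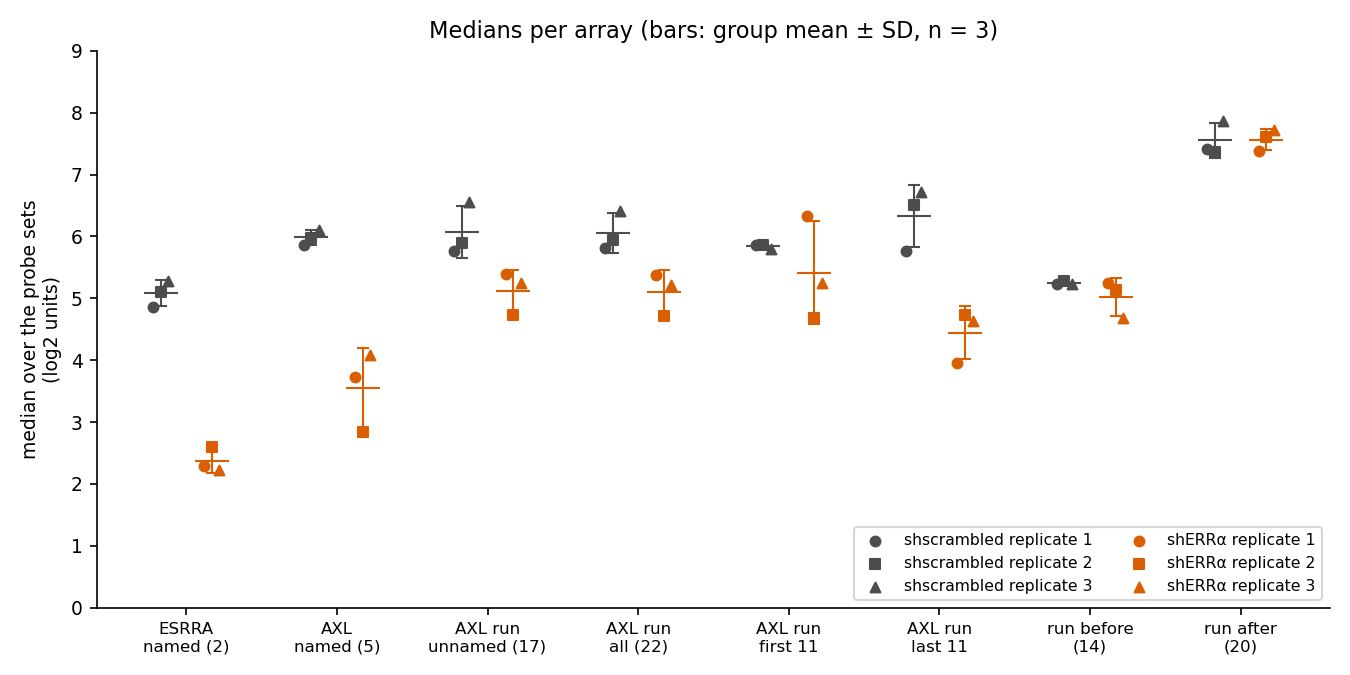
Median over the probe sets in log2 units (vertical axis) on each array for ESRRA, for AXL by its named, unnamed and all probe sets and by the first and last 11 of its run, and for both neighbouring runs, with the number of probe sets in brackets. Bars give the group mean ± SD (n = 3). The groups are apart for ESRRA and for AXL except in the first 11 identifiers, and overlap in both neighbouring runs.

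Other genes of the AXL system were read from 5 lists of receptors, ligands, signalling proteins, regulators and targets. A gene counts as listed where the deposited table names at least 1 of its probe sets, so its direction was selected on these arrays. For comparison, 11.7% of the 10113 runs of 10 to 60 probe sets held at least 1 listed probe set, 7.81% a lower and 4.15% a higher one. Runs with at least 5 listed probe sets, as that of AXL, made up 0.396%. AXL was chosen by its 5 listed probe sets, so nothing is read from that share. These shares are a rough guide, since runs stand in for genes and differ in length. Counts of the other probe sets in a gene's run follow, where 50.2% of all probe sets were lower. Those probe sets lie beside selected ones and share the same 6 arrays, so they are no independent support for the listed direction.

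Of the TAM receptors and ligands, 1 of the 4 besides AXL was listed, the receptor MERTK, which shares the ligand GAS6 with AXL. TYRO3, GAS6 and PROS1 were not. MERTK rested on 1 probe set, which read 4.47, 4.96 and 4.46 log2 units in the control and 1.96, 1.96 and 2.87 in shERRα. The groups lay over 1 log2 unit apart, and the shERRα mean of 2.26 is near background. Of the other 22 probe sets in its run 18 were lower, with a median difference of -0.27 log2 units, against -1.30 for the 17 unnamed ones of AXL; this difference between the receptors was not tested. MERTK was given values after they were seen.

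Among 30 genes of AXL signalling and turnover, 4 (13.3%) were listed, of which AKT2, CBL and DOCK1 were lower and SOCS1, a suppressor of cytokine signalling, was higher. CBL, the ubiquitin ligase that marks activated receptors for degradation, read 7.39, 7.44 and 7.37 log2 units in the control and 5.93, 5.86 and 6.03 in shERRα at its listed probe set. The SDs were 0.04 and 0.08 log2 units, small beside the difference, and 14 of the other 15 probe sets of the run were lower too (median -0.95). DOCK1, an activator of the small GTPase RAC1, read 6.04, 6.07 and 5.94 against 4.13, 3.75 and 4.13 at 1 probe set. Of the 51 others in its run, 45 were lower, with a median of only -0.51. The kinase AKT2 read 6.005, 5.65 and 5.97 against 4.20, 4.35 and 4.77 at its listed probe set. The other 20 of its run were divided, 11 lower and 9 higher, around a median of -0.04.

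Of 21 transcription factors and coactivators known to act on AXL, 6 (28.6%) were listed: EPAS1, FOS, JUNB and TEAD3 lower, and WWTR1 and ZEB1 higher. EPAS1, which encodes HIF-2α, was listed by 8 probe sets, whose median was 7.53, 7.52 and 7.44 log2 units against 5.97, 6.24 and 5.61. It was 2.94-fold lower with no overlap, and 10 of the 13 others in its run were lower as well. ZEB1, a repressor of epithelial genes, read 2.44, 2.51 and 2.21 against 4.25, 4.28 and 4.92 over 2 probe sets. Its control level was near background, and all 14 others of the run were higher (median 0.53). The factors FOS and JUNB of the AP-1 family, the YAP partner TEAD3 and WWTR1, which encodes TAZ, were listed by 1 probe set each. The shERRα mean of FOS (1.04) and the shscrambled mean of WWTR1 (2.08) were near background. SP1, YAP1 and HIF1A were among those not listed.

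Among 22 YAP target genes 4 (18.2%) were listed, and they were divided. NT5E, an ectonucleotidase, was higher at 6 probe sets, with medians of 7.33, 7.31 and 7.01 log2 units against 8.49, 8.66 and 8.92 (2.77-fold), and so were all 5 others in its run. PTPN14, a phosphatase that restrains YAP, was 3.24-fold higher over 2 probe sets, reading 4.17, 4.39 and 4.59 against 5.97, 6.05 and 6.21. MYOF, a membrane repair protein, was 2.29-fold lower over 2 probe sets, reading 7.53, 7.86 and 7.80 against 6.18, 6.88 and 6.54, and 48 of the 51 others were lower. The coagulation receptor F3 was lower at 1 probe set. AXL, itself a known YAP target, was lower like MYOF and F3 and unlike NT5E and PTPN14.

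Of 57 other receptor tyrosine kinases, 12 (21.1%) were listed, 9 lower and 3 higher. Only FGFR2, a fibroblast growth factor receptor, had 5 listed probe sets as AXL did. Its median read 6.998, 7.11 and 7.08 log2 units against 5.71, 6.29 and 5.55, a level 2.32-fold lower with no overlap between the groups. Of its 21 other probe sets 16 were lower, with a median of -0.69. The remaining 11 were listed by 1 probe set each. EPHA4, an ephrin receptor, read 5.08, 5.42 and 4.40 against 2.47, 3.23 and 3.32, while the other 20 of its run had a median of -0.33, with 12 lower. EPHB2, ERBB3, FGFR4, FLT3, FLT4, MERTK and STYK1 were also lower, and KDR, MUSK and NTRK3 higher. MUSK lay under 2.41 log2 units, and so near background, in both groups (means of 0.67 and 1.71). The same holds for the shERRα means of EPHB2 (1.82) and FLT3 (1.19) and for the shscrambled means of KDR (0.69) and NTRK3 (1.38). For the receptors listed by 1 probe set, the other probe sets of the run had medians between -0.65 for ERBB3 and 0.22 for FLT4. In FLT4 they pointed against the listed direction.

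**Figure D4:**
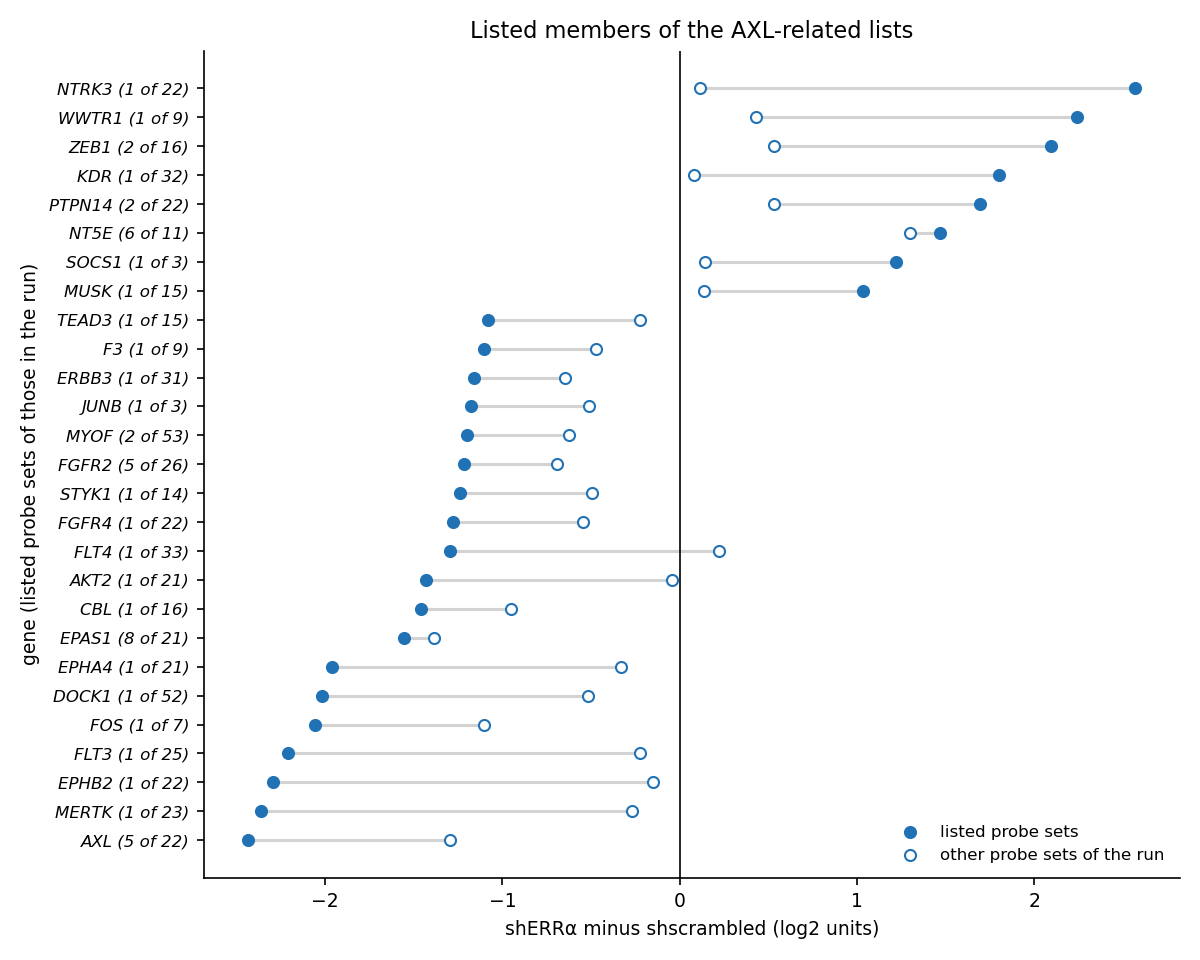
Difference between groups (shERRα minus shscrambled, log2 units) for each listed member of the 5 lists, with the number of listed probe sets out of those in the run in brackets. Filled symbols are medians over the listed probe sets and open ones medians over the other probe sets of the same run. For AXL, EPAS1, FOS and NT5E the open symbol lies beyond 1 log2 unit, while for AKT2 and EPHB2 it lies near 0.

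The genes whose listed probe sets followed AXL most closely over the 6 arrays were picked among the 119 genes that had 3 or more distinct probe sets listed, by Pearson correlation of the medians. They were MAN2A1, a Golgi mannosidase of N-glycan processing (r = 0.994), SPTB, an erythroid-type β spectrin (0.990), the adhesion receptor ADGRG1 (0.985), the adducin ADD3 (0.975) and WASHC5, a subunit of the WASH complex (0.973). Each was lower in shERRα. Over all 87 lower genes of this set the correlation with AXL was 0.790 to 0.994, with a median of 0.886, and all were selected for the same group difference. MAN2A1 read 7.46, 7.36 and 7.74 log2 units in the control and 6.03, 5.44 and 6.36 in shERRα. Its lowest array was shERRα replicate 2 and the highest of that group replicate 3. The AXL median has the same order, but MAN2A1 was picked for its likeness to that median. Single AXL probe sets did not all share this order: at 8029010 and 8029021 shERRα replicate 1 was the highest of its group. SPTB read 4.07, 4.13 and 4.23 against 1.54, 1.26 and 2.32, a difference of -2.44 log2 units, close in size to that of AXL but at a level near background in shERRα.

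**Figure D5:**
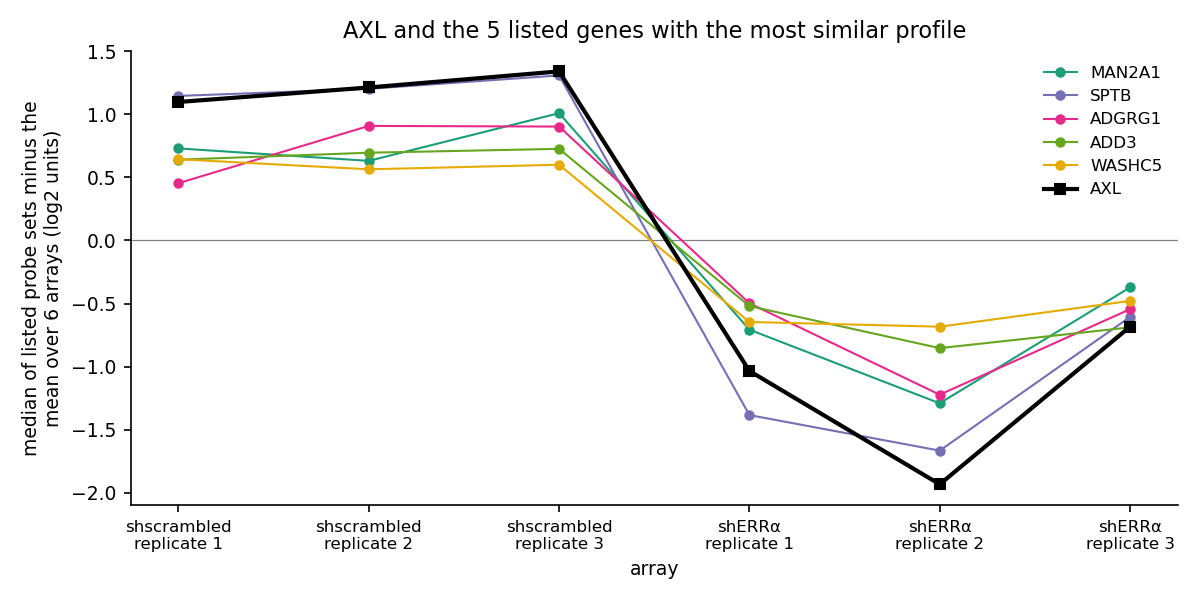
Median of the listed probe sets on each array minus the gene's mean over all 6 arrays (log2 units, vertical axis) for AXL and the 5 genes with the highest correlation to it. All 6 profiles lie above 0 on the shscrambled arrays and below 0 on the shERRα arrays, and all but SPTB fall by less than AXL.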

How the data were processed

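Total RNA of HCT116 cells was hybridised to 6 Affymetrix whole-transcript arrays. The deposited values are 1 number per probe set and array, summarised by the authors with RMA in log2 units, per the submitters' processing notes; neither annotation nor build is given in the sources used here. Their decimal marks were lost and were restored from the number of digits; 5.86% of values were ambiguous and took the reading nearer to the rest of the probe set, and 1269 undecided probe sets were left out. All 2122 fold changes and p-values of the authors' deposited table were matched (within 0.001 log2 units and 1%), which also fixes the ratio as shERRα over shscrambled. For 12 undecided probe sets of that table the reading was chosen by the deposited fold change, so their match was built in. Probe sets outside that table rest on the reading rule alone.

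Groups and replicate numbers came from the sample titles. A run ends where an identifier is missing. Genes were named through the deposited table and RefSeq (GRCh38.p14). Differences are between group means; SEs of single probe sets come from limma (version 3.58.1, R 4.3.3; lmFit, eBayes, Benjamini-Hochberg over all probe sets), tested on simulated data, and those of medians from both group SDs. AXL, the lists and the tests were chosen with earlier results of these data known. Values were given for the 10 listed members with the most listed probe sets, then by symbol; single members named beyond these were chosen after their values were seen. The number of arrays limits the precision. Alternatives were a replicate block, each array left out, quantile normalisation, centring, array weights, filters on dim probe sets and other summaries.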

Additional observations from a re-analysis of the deposited data

How the results depend on the processing

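The AXL difference kept its direction in every setting run. This is no independent support, since the named probe sets were listed for their difference and the run was chosen around them. For the named probe sets the difference was -2.43 log2 units, and the same with a replicate block. It was -1.87 with the mean over probe sets per array and -1.75 as the median of the differences; with each array left out it ranged from -2.70 to -2.08. For the run it was -0.96 (replicate block -0.96), -1.46 as the median of the differences, and -1.10 to -0.76 with each array left out. Quantile normalisation, centring and array weights moved neither by more than 1 SD. Of the 384 values of the other 32 genes, 0 changed direction and 7 moved by over 1 SD; this says little, since the genes were listed for their difference. Settings for the counts along the run were added after the data were seen.

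The rule of the deposited table depended on single arrays: 5 of the run's 22 probe sets passed it, 2 without shscrambled replicate 1, 0 without replicate 2 or 3, and 2, 1 and 4 without shERRα replicate 1, 2 and 3. Each of these settings also has fewer arrays, and the part this plays was not tested. Over all probe sets the rule selected 695 as higher and 1427 as lower. The counts were 392 and 675 with the replicate block. With each array left out they ranged over 513 to 906 higher and 775 to 1705 lower. The lower count was 775 without shscrambled replicate 2 and 909 without shscrambled replicate 1. Above the median level the counts were 270 and 854. That filter leaves fewer probe sets, so its counts cannot be set directly beside the full ones. Limma's adjusted count was 0 in each of these settings and with array weights. Same-numbered arrays deviated together only weakly (correlations 0.07, 0.05 and 0.08), so the numbers were not taken to pair the arrays.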
